A study of Rattus norvegicus with 19 samples.

Results

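Oxidative phosphorylation genes, the nuclear genes for the subunits of respiratory complexes I to IV and of ATP synthase (complex V), were followed in rat motor cortex after a C3 lesion. Members were taken by symbol: a probe set annotated to 1 symbol beginning with Ndufa, Ndufb, Ndufc, Ndufs, Ndufv, Sdha to Sdhd, Uqcr, Cox4 to Cox8, Atp5f1, Atp5p or Atp5m. This gave 98 probe sets and, with the brightest probe set kept for each gene, 89 of the 14217 named genes on the array. They comprise 34 genes of complex I, 4 of complex II, 7 of complex III, 18 of complex IV and 15 of complex V. The symbol rule also takes in 11 assembly and supercomplex factors (Ndufaf, Sdhaf and Cox7a2l), which are not subunits and are given apart. Complex IV here includes Ndufa4 and Ndufa4l2, whose symbols recall complex I, and Cox6c-ps1, named as a pseudogene. No filter on low signal was applied, so all 89 genes were tested.

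The samples were motor cortex of adult female Fischer 344 rats. A control group of 4 arrays (time 0 in the labels) was set against groups of 3 arrays each at day 1, day 3, day 7, day 14 and day 49 after the operation, 19 arrays in all. The labels do not say whether the control rats had a sham operation, nor what kind of lesion was made. The source names give each array its own animal number. No transgene, drug or other agent is named for any group.

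Electrons from NADH enter the respiratory chain of the inner mitochondrial membrane at complex I and those from succinate at complex II. They pass through complex III to complex IV, which reduces oxygen, and the proton gradient built on the way drives ATP synthase. Neurons depend heavily on this pathway for ion pumping and synaptic transmission. Complexes I, III, IV and V combine nuclear subunits with others encoded in mitochondrial DNA, whereas every subunit of complex II is nuclear. None of the 13 mitochondrially encoded subunits was matched to a probe set, so the nuclear part alone is described.

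Promoters of 81 of the 89 genes were found in the RefSeq table for GRCr8 (250 bases before to 50 after the annotated start). Short motifs known from promoters of mitochondrial genes were searched on both strands. The 150 bases before the start are shown for Sdha and Uqcrc2, which lay below control at every time, for Ndufa12, which lay above control, and for Atp5me, which holds several of the motifs. Capitals mark the motifs found: GCGCATGCG, the core recognised by NRF1, and CCGGAAG, an ETS-type core, which reads CTTCCGG on the other strand. The windows are chr1:30764403-30764552 for Sdha, chr1:184599090-184599239 for Uqcrc2, chr7:30658166-30658315 for Ndufa12 and chr14:1464710-1464859 for Atp5me, all on the + strand.
Sdha: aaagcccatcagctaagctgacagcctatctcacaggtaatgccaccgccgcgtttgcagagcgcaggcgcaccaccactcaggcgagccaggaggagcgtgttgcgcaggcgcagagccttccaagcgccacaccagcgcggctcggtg
Uqcrc2: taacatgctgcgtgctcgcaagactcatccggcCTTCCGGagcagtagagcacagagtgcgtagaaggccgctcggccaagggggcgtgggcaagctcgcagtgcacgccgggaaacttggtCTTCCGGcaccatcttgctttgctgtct
Ndufa12: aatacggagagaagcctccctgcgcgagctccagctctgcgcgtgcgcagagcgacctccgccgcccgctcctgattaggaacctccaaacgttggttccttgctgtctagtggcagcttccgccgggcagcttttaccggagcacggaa
Atp5me: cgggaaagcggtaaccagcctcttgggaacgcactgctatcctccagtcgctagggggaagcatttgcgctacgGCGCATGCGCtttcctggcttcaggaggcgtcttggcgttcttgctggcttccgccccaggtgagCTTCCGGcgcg

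The Uqcrc2 window holds CTTCCGG at 2 places, the Atp5me window holds both kinds of motif (the NRF1 core matches there on both strands, shifted by 1 base, so the capitals run 1 letter longer), and those of Sdha and Ndufa12 hold none of the letters searched. Over the whole promoter window, CCGGAAG was found in 25 of 81 genes (30.9%), against 8.75% of all 33469 promoters in the table. The YY1 core AAGATGGC was found in 17 genes (21%), against 3.17% of all promoters, and in 14 of these it lay on the gene's own strand close to the start. GCGCATGCG was found in 7 genes (Atp5me, Atp5mg, Atp5po, Ndufa11, Ndufaf4, Ndufaf5 and Uqcrc1; 8.64%, against 1.52%). TATAAA was found in 8 genes (9.88%, against 14.2%). At least 1 of NRF1, ETS and YY1 cores was present in 39 genes (48.1%, against 12.5%). CCGGAAG and AAGATGGC did not overlap in any member. Of the promoters of protein-coding genes alone, 15.1% had at least 1 of these 3 cores.

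Before the results, the arrays themselves: 17 of the 19 correlated with the others at a median r between 0.994 and 0.997 over probe sets, whereas day 14 replicate 2 reached 0.931 and day 49 replicate 2 reached 0.969. The beta-actin 3′ minus 5′ control difference, a measure of RNA integrity and labelling, was 0.88 to 1.29 log2 units in the 17 arrays and 2.24 in day 14 replicate 2. The GAPDH difference was at most 0.20 in the 17 arrays and 3.18 in that array. Neuron markers averaged 10.04 to 10.38 log2 units in the 17 arrays. Genes listed as skeletal muscle markers (Ckm, Acta1, Myh4, Tnnt3 and Pvalb) averaged 6.15 to 7.58 there and meningeal markers 9.96 to 10.73. Values are therefore given for the 17 arrays, for all 19, or for both. Some medians by complex and role are given for the 17 alone, although day 14 replicate 2 and day 49 replicate 2 move them. In the 17, days 14 and 49 keep 2 arrays each, replicates 1 and 3.

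No oxidative phosphorylation gene passed the test at any time. With limma across all 31042 probe sets and Benjamini-Hochberg adjustment at 0.05, 0 of 89 members were called at day 1, where 0.0354% of all probe sets were. At days 3, 7, 14 and 49 the members called were again 0, as were all probe sets (0%). The F test over the 5 times called 0 members and 0.0129% of probe sets, and at an unadjusted p under 0.05 it took 0 members and 4.41% of probe sets. At an unadjusted p under 0.05 the members numbered 0 at days 1, 3 and 7 (1.64%, 0.908% and 0.886% of probe sets), 23 at day 14 (13.1%) and 5 at day 49 (15.4%). Without the arrays that stand apart the adjusted count was 0 at every time (0.219% of probe sets at day 1, 0% at the others) and by the F test (0.135%). The unadjusted counts there were 0 (7.12%), 3 (4.56%), 0 (4.89%), 0 (5.68%) and 7 (12%), and 0 by the F test (7.07%). At day 49 the adjusted count differed under other settings. It was 19 with array weights (15 higher and 4 lower, among 21% of all probe sets), 8 by the F test with those weights (20.7%), and 3 without day 49 replicate 1 (7.84%), each a share of the 89 members near or under that of all probe sets.

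The size of change that the arrays leave room for was small. In the 17 arrays the 95% interval of the difference from control lay within 0.5 log2 units (1.41-fold) on either side of zero for all 89 members at days 1, 3 and 7, and for 88 at days 14 and 49. The exception was Cox8b, a form of subunit VIII best known from heart and muscle, with a mean signal of 4.98 log2 units. Of all genes, 95.7%, 96.3%, 96.5%, 95.2% and 93.8% lay within the same limits in time order. With all 19 arrays the member counts were 82, 80, 82, 63 and 75, and the shares of all genes 77.7%, 79.5%, 80.1%, 60.9% and 60.3%. Only the brightest probe set of each gene was counted. The other Uqcrc2 probe set, at -0.40 (SE 0.133) at day 49 in the 17 arrays, was not. These bounds apply to RNA in a block of tissue, in which fewer cells of a type and less RNA per cell cannot be told apart.

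With all controls in the fit, the median member lay slightly above control at most times. The median difference over the 89 genes was 0.039 log2 units at day 1, -0.0022 at day 3, 0.031 at day 7, 0.10 at day 14 and 0.026 at day 49. The corresponding medians of all genes were 0.0059, -0.0052, 0.0066, 0.063 and -0.028. In the 17 arrays the day 14 and day 49 medians of the members were 0.048 and 0.043. Members higher than control numbered 69, 43, 67, 75 and 60 of 89 in the 17 arrays. Of all 14217 genes, 7496, 6709, 7658, 7591 and 7148 were higher there. The control arrays themselves spread as widely: their median member deviations from the control mean were -0.073, 0.010, 0.059 and -0.0032, an SD of 0.055 (n = 4). Control replicate 1 was the lowest of them, and without it the medians were 0.013 at day 1, 0.0028 at day 7 and -0.0018 at day 49. Without control replicate 3, the highest, they were 0.057, 0.053 and 0.057. The 56 cytosolic ribosomal protein genes, another abundant group, had medians of 0.040, 0.021, 0.037, 0.044 and 0.029 in the same 17 arrays.

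**Figure D1:**
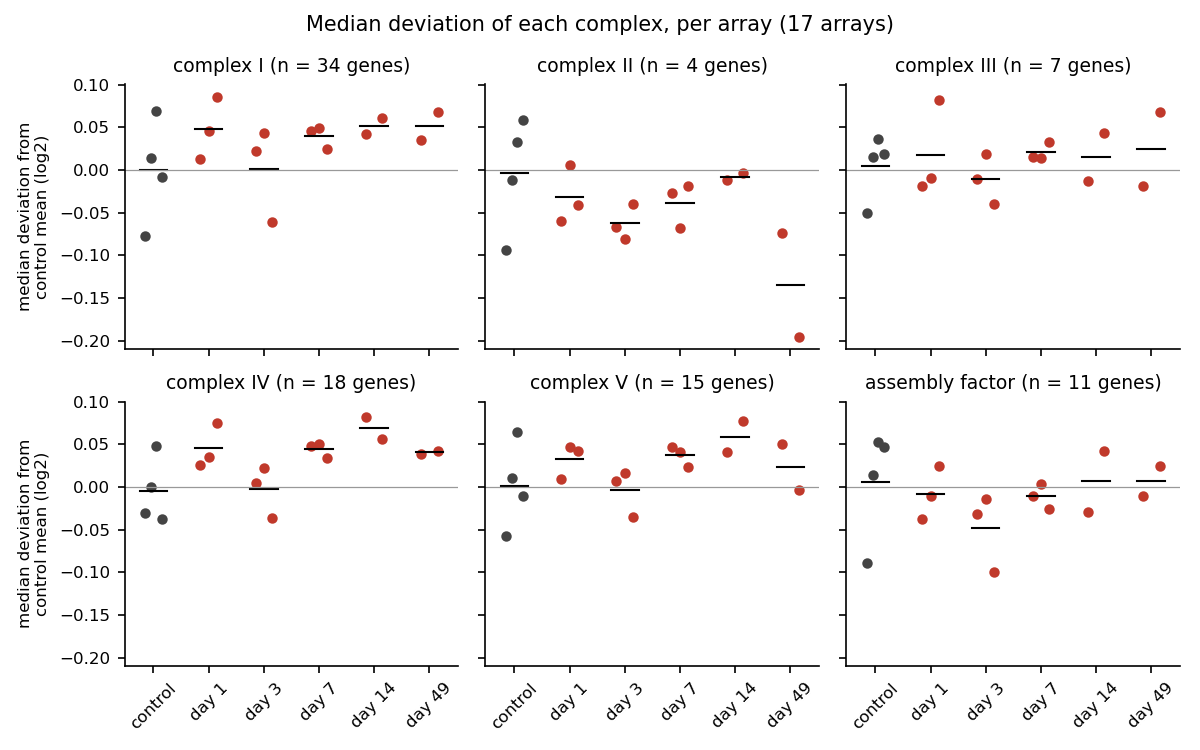
Median deviation from the control mean (log2 units, y axis) of the genes of each complex in each of 17 arrays, by group (x axis); grey points are control arrays, red points arrays after the lesion, bars the group means, and day 14 replicate 2 and day 49 replicate 2 are not drawn. The complex I medians of the lesion groups lie within the range of the control arrays except in day 1 replicate 3, and the complex II median of day 49 replicate 3 (-0.20) lies below every control array.

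Complex I, the NADH dehydrogenase, has a catalytic core and many accessory subunits. The grouping into roles was made with the values known. Of the 28 accessory genes, 27 lay above control at day 1, 18 at day 3, 26 at day 7, 27 at day 14 and 25 at day 49 in the 17 arrays, with medians of 0.056, 0.0048, 0.047, 0.055 and 0.065. Of all 14217 genes, 7496, 6709, 7658, 7591 and 7148 lay above control there. The genes share the same control arrays, whose complex I medians ran from -0.077 (replicate 1) to 0.069 (replicate 3), so these counts are not independent. The 6 core genes (Ndufs1, Ndufs3, Ndufs7, Ndufs8, Ndufv1 and Ndufv2) had medians of -0.0055, -0.012, 0.0057, 0.0096 and -0.022. With all 19 arrays the day 14 medians were 0.15 for the accessory and -0.13 for the core genes. The difference between these groups was not tested, and none of their genes passed the test.

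Ndufa12, an accessory subunit, measured 10.75, 10.92, 10.90 and 10.91 in the control arrays. It measured 10.92, 10.97 and 11.01 at day 1, 10.96, 10.95 and 10.87 at day 3, and 10.99, 10.96 and 10.93 at day 7. It measured 10.94, 11.51 and 11.01 at day 14 and 10.96, 11.07 and 11.07 at day 49. All arrays of days 7, 14 and 49 lay above all controls, and days 1 and 3 overlapped them. The difference was 0.16 at day 49 (SE 0.105, limma adjusted p = 0.414), and 0.14 in the 17 arrays (adjusted p = 0.400).

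Ndufs1, the largest core subunit and a carrier of iron-sulfur clusters, measured 10.66, 10.69, 10.68 and 10.72 in controls and 10.77, 10.76 and 10.75 at day 3, above every control. At day 49 it measured 10.74, 10.68 and 10.43, so a single array was low. Its differences were 0.071 at day 3 and -0.075 at day 49 (-0.11 in the 17 arrays). Ndufv1, which holds the flavin that accepts electrons from NADH, differed from control by -0.031, -0.065, -0.026, -0.015 and -0.071 in the 17 arrays.

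Complex II, succinate dehydrogenase, had the lowest median of the 5 complexes at each time in the 17 arrays (-0.043, -0.064, -0.038, -0.0080 and -0.14). With all 19 arrays its medians were -0.39 at day 14 and -0.067 at day 49. By array, its day 49 median was -0.074 in replicate 1, within the control arrays (-0.093 to 0.059), and -0.20 in replicate 3. With the beta-actin covariate over all 19 arrays its medians were 0.026, -0.0041, 0.072, -0.054 and 0.016. In that fit it was the highest of the 5 complexes at day 7 and the lowest only at day 14. The fit includes day 14 replicate 2, which had the highest covariate value (2.24), with Sdhb at 9.58 and Sdhc at 6.73. How far that array sets these medians was not tested, so they are not a like comparison with the 17 arrays. Sdha, the flavoprotein of complex II, oxidises succinate. When the brightest probe set of each gene is read, Sdha was the complex II member farthest below control at each time in the 17 arrays. It measured 10.90, 10.93, 10.98 and 11.00 in the controls and 10.87, 10.93 and 10.72 at day 1. It measured 10.84, 10.84 and 10.89 at day 3, 10.82, 10.84 and 10.81 at day 7, and 10.86, 10.86 and 10.85 at day 14. At day 49 it measured 10.84, 10.71 and 10.48. In 14 of 15 arrays after the lesion the value was below the lowest control, the exception being day 1 replicate 2.

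The differences of Sdha were -0.11, -0.093, -0.13, -0.094 and -0.28 log2 units in time order. The last had an SE of 0.0773 and an unadjusted p of 0.00254, and its limma adjusted p was 0.306, so it did not pass. In the 17 arrays it was -0.29 (adjusted p = 0.226). Its lowest values were in day 49 replicate 3 (10.48), day 49 replicate 2 (10.71) and day 1 replicate 3 (10.72). The beta-actin 3′ minus 5′ differences of these arrays were 1.29, 0.845 and 1.26, the first and the last being the highest of the 17 arrays and the other the lowest of all 19. With the beta-actin covariate over all 19 arrays, the lowest complex II difference was -0.11 at day 1 and -0.27 at day 49. In that fit 0 of the 4 complex II genes passed. Beyond this fit, the part of RNA integrity in the result was not tested.

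For Sdhb, the iron-sulfur subunit, and the membrane anchors Sdhc and Sdhd, the day 49 differences of the brightest probe sets in the 17 arrays were -0.052, -0.14 and -0.13, with SEs of 0.0553, 0.0676 and 0.0619. None passed the test (adjusted p = 0.770, 0.421 and 0.430 by limma). The other Sdhd probe set lay farther below control, at -0.11, -0.14, -0.16, -0.036 and -0.32 in time order in the 17 arrays. At day 49 this was below the Sdha difference, with an SE of 0.0834 and a limma adjusted p of 0.226. With all 19 arrays it was -0.26 (unadjusted p = 0.00683, adjusted p = 0.306), so it did not pass either.

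**Figure D2:**
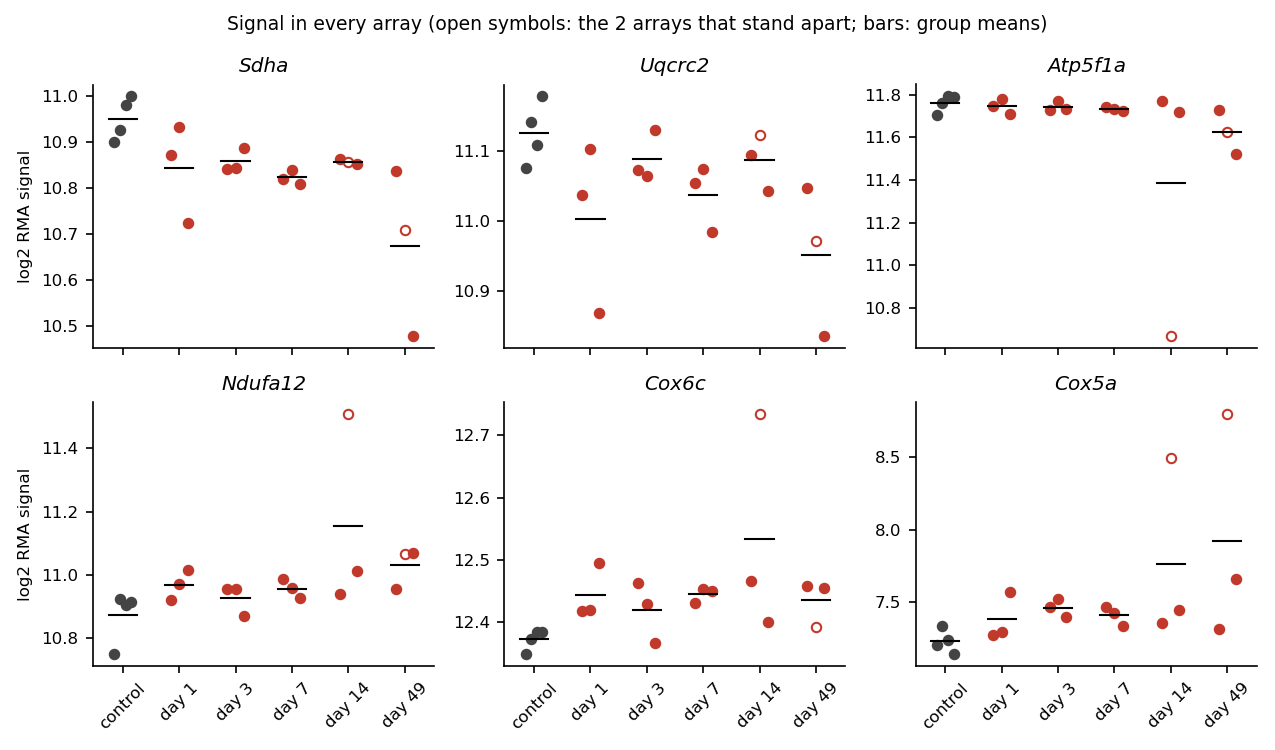
Log2 RMA signal (y axis) of Sdha, Uqcrc2, Atp5f1a, Ndufa12, Cox6c and Cox5a in every array, by group (x axis), each panel with its own scale that does not start at 0; bars are group means and open symbols the arrays that stand apart. Sdha lies below its lowest control (10.90) in 14 of 15 arrays after the lesion, and the open symbols carry the high Cox5a values of 8.49 and 8.80.

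Complex III passes electrons from ubiquinol to cytochrome c. Uqcrc2, a core protein, measured 11.08, 11.14, 11.11 and 11.18 in controls, and 11.04, 11.10 and 10.87 at day 1. It measured 11.07, 11.06 and 11.13 at day 3, 11.05, 11.07 and 10.98 at day 7, and 11.09, 11.12 and 11.04 at day 14. At day 49 it measured 11.05, 10.97 and 10.84. The groups of days 7 and 49 lay wholly below the controls and the others overlapped them. Its day 49 difference was -0.17 (SE 0.0698, limma adjusted p = 0.306). The lowest arrays were day 49 replicate 3 and day 1 replicate 3. Its other probe set differed by -0.28 at day 49 with all arrays and by -0.40 in the 17 (SE 0.133, adjusted p = 0.248).

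The other core protein, Uqcrc1, stayed within 0.038 log2 units of control in the 17 arrays. The Rieske iron-sulfur protein Uqcrfs1 differed by -0.14 at day 49 in the same arrays (SE 0.068). The 4 small subunits, among them Uqcrh and Uqcrq, had a median of 0.093 at day 49, with all 4 above control. None of the 7 genes passed the test.

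Complex IV, cytochrome c oxidase, has subunits found in most tissues and others with forms restricted to muscle, lung or testis. Its 10 broad forms were all above control at days 1, 7 and 14 in the 17 arrays, with medians of 0.054, 0.049 and 0.058. Of all 14217 genes, 7496, 7658 and 7591 were above control at these times. With all 19 arrays 8 of the 10 were above control at day 14 (median 0.10). At day 3, 6 of 10 were above control, with a median of 0.013. Cox6c, a small subunit named here after its values were seen, was above the highest control in 14 of 15 arrays after the lesion, and its differences in the 17 arrays were 0.072, 0.047, 0.073, 0.060 and 0.084. With all 19 arrays the day 14 and day 49 differences were 0.16 and 0.063, the former carried by day 14 replicate 2 at 12.73.

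Cox5a, a subunit on the matrix side, had 1 probe set with a mean signal of 7.51, against 11.97 (Cox5b) to 12.57 (Cox4i1) for the other broad forms. How well this probe set reads the transcript was not tested. In controls Cox5a measured 7.20, 7.34, 7.24 and 7.14. It measured 7.27, 7.29 and 7.57 at day 1, 7.46, 7.52 and 7.39 at day 3, and 7.47, 7.43 and 7.33 at day 7. It measured 7.36, 8.49 and 7.44 at day 14 and 7.31, 8.80 and 7.66 at day 49. Only days 3 and 14 lay wholly above the controls, and the 2 highest values came from the arrays that stand apart. The day 49 difference was 0.69 with all arrays (SE 0.283, limma adjusted p = 0.307) and 0.26 in the 17 (SE 0.0993, adjusted p = 0.320).

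Cox4i1, the usual regulatory subunit, stayed within 0.016 of control in the 17 arrays. Cox4i2, a form best known from lung, differed by 0.30 at day 49 with all arrays and by -0.015 in the 17. Cox6b2, a form best known from testis, measured 3.85 to 3.98 in controls and 3.93, 4.27 and 4.36 at day 49. Its day 49 difference was 0.26 (SE 0.0979, limma adjusted p = 0.306), and 0.22 in the 17 arrays (SE 0.105, adjusted p = 0.424). Cox7a1, a form known from heart and muscle, measured 5.62 to 5.74 in controls and 5.75, 6.04 and 5.99 at day 49, and its day 14 difference changed from 0.45 to -0.037 without the arrays that stand apart. Skeletal muscle markers averaged 6.23 to 7.58 among the control arrays and 6.19 to 7.62 at day 49, the highest value being that of day 49 replicate 2. At day 49, 4 of the 5 markers lay above control with all 19 arrays (median 0.022). In the 17 arrays all 5 lay below control then (median -0.47). The part of muscle in these forms was not tested.

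Complex V makes ATP. In the 17 arrays its 10 membrane and stalk genes had medians of 0.045, 0.0071, 0.046, 0.083 and 0.046, and its 5 genes of the F1 head had medians of 0.025, -0.015, 0.015, 0.032 and -0.014. With all 19 arrays the day 14 medians were 0.13 for the membrane and stalk genes and -0.11 for the F1 genes. Atp5f1a, the alpha subunit of F1, measured 11.70, 11.76, 11.79 and 11.79 in controls and 11.73, 11.62 and 11.52 at day 49. The difference of -0.14 did not pass with all 19 arrays (limma adjusted p = 0.683) or in the 17 (-0.14, limma adjusted p = 0.388). With array weights, where 21% of all probe sets were called, it was -0.21 and passed (limma adjusted p = 0.0172). Atp5f1b, the catalytic beta subunit, stayed within 0.032 of control at each time in the 17 arrays. Atp5mpl, a small membrane subunit, lay 0.11, 0.047, 0.12, 0.096 and 0.16 above control there.

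**Figure D3:**
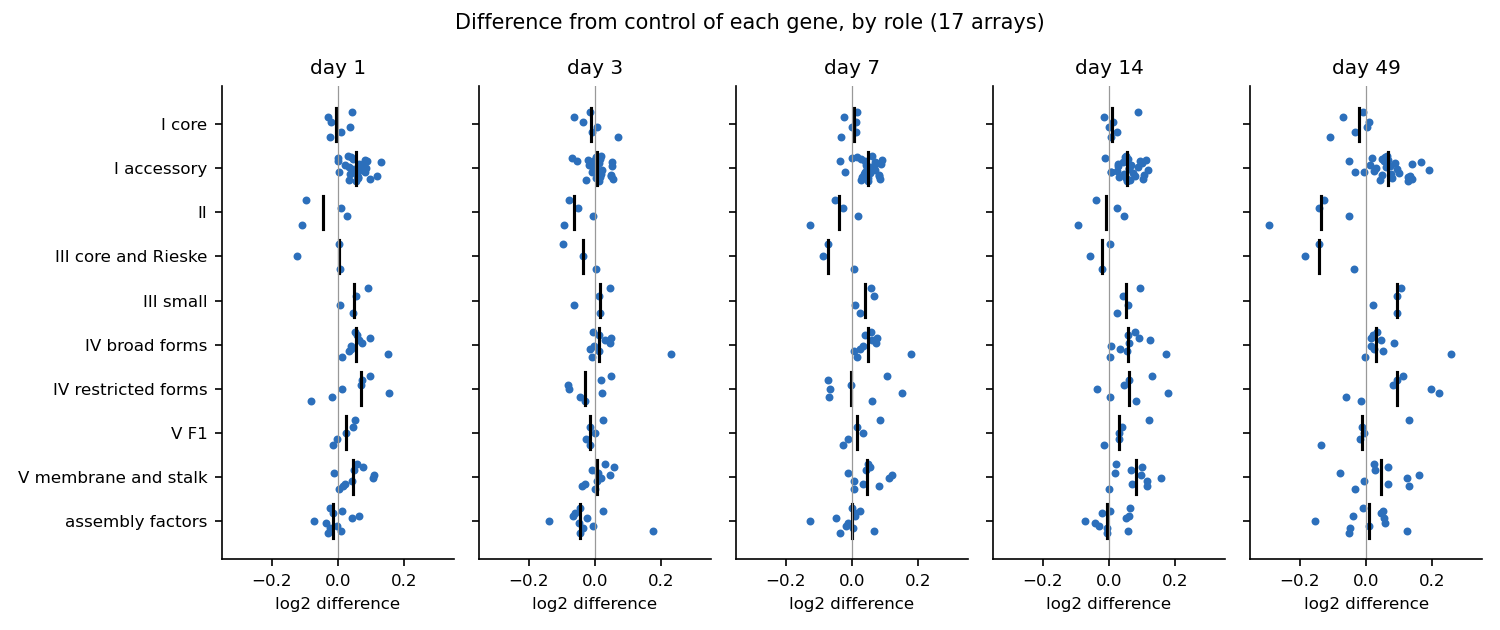
Difference from control (log2 units, x axis) of 88 genes grouped by role (y axis) at each time in the 17 arrays; points are genes, black ticks the medians, and the pseudogene is not drawn. At day 49, where replicates 1 and 3 alone remain, the medians of complex II and of the complex III core and Rieske genes are both -0.14. That of the complex I accessory genes is 0.065.

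Among the 11 assembly factors the medians were -0.016, -0.045, 0.00077, -0.0051 and 0.0097 in the 17 arrays. With all 19 arrays the medians were 0.19 at day 14 and -0.059 at day 49. At day 49, 10 of the 11 then lay below control, as did 7897 of all 14217 genes. Ndufaf7, a methyltransferase needed to build complex I, lay below control at all 5 times (-0.072, -0.14, -0.13, -0.074 and -0.15 in the 17 arrays). Its other probe set gave -0.042, 0.046, 0.013, -0.0044 and 0.092, so the sign was the same at days 1 and 14 and opposite at days 3, 7 and 49. Over the 9 members with 2 probe sets, 33 of 45 pairs of differences had the same sign in the 17 arrays.

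Gene by gene, complete separation from the controls was seen most often at day 14. Every array lay above every control for 4 members at day 1 (4.4% of all probe sets), 2 at day 3 (2.65%), 2 at day 7 (2.86%), 14 at day 14 (6.43%) and 4 at day 49 (5.27%). Every array lay below every control for 0 members at day 1 (2.54%), 4 at day 3 (2.82%), 2 at day 7 (4.19%), 1 at day 14 (2.62%) and 2 at day 49 (4.8%). Without the arrays that stand apart, the members above numbered 17 at day 14 (8.82%) and 8 at day 49 (7.54%), and those below 1 (5.77%) and 3 (7.13%). These groups then hold 2 arrays each, and with fewer arrays such counts can only stay or rise. Sdha was below at days 3, 7, 14 and 49 in both readings.

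Neighbouring pathways gave no calls either. Of the 14 citric acid cycle and pyruvate dehydrogenase genes, which feed the chain with NADH and succinate, 0 passed. At day 49 all 14 lay below control in the 17 arrays with a median of -0.11, as did 7069 of all 14217 genes. With all 19 arrays 13 of 14 lay below at day 49 (median -0.093), and with the beta-actin covariate 11 of 14 (median -0.066). In the 17 arrays Suclg2, a subunit of succinyl-CoA ligase, differed by -0.14 at day 49 and Pdhx, the pyruvate dehydrogenase component X, by -0.17. Of 14 glycolytic genes 0 passed. Of 14 regulators of mitochondrial biogenesis 0 passed, and their medians in the 17 arrays were -0.063, -0.017, 0.00040, -0.066 and -0.020. With all 19 arrays 12 of these 14 lay below control at day 49 (median -0.19), as did 7897 of all genes. Of 73 mitochondrial ribosomal protein genes 0 passed, with medians of at most 0.020 in the 17 arrays and 0.11 at day 14 with all 19.

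In day 14 replicate 2 the members lay far from control. In that array 40 of 89 members were over 0.5 log2 units from the control mean, 14 below and 26 above, whereas in each of the 17 arrays 0 were. Of all 14217 genes, 2338 lay below and 3320 above these limits in the same array. Atp5f1d, the delta subunit of F1, lay at -3.85, Sdhc at -3.81, Ndufv1 at -2.21, Sdhb at -2.13 and Atp5f1a at -1.09. Cox7a1 lay at 1.42, Cox5a at 1.27, Sdhaf3 at 1.24 and Ndufb1 at 1.12. All 6 complex I core genes lay below control there (median -0.39), and the accessory genes had a median of 0.34. Glycolytic genes had a median of -0.90 in this array. The beta-actin and GAPDH 3′ minus 5′ differences were also highest in it, and their part in these values was not tested.

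**Figure D4:**
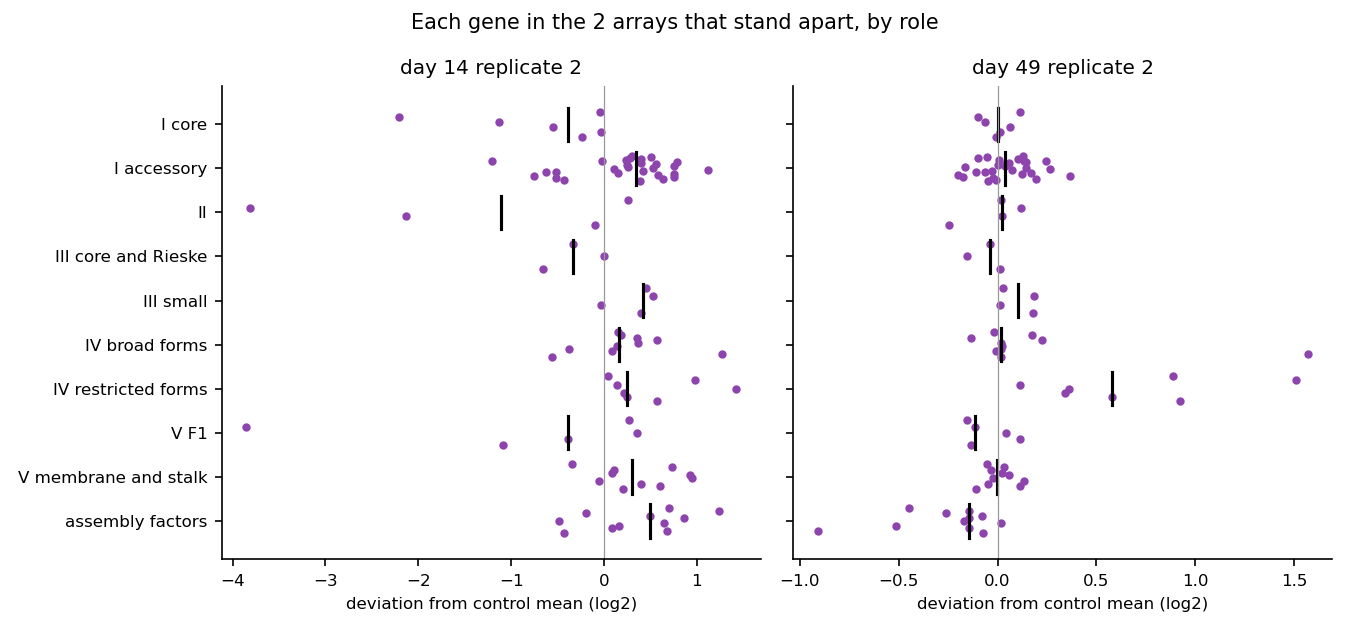
Deviation from the control mean (log2 units, x axis; the panels have different scales) of 88 genes by role (y axis) in day 14 replicate 2 and day 49 replicate 2; points are genes, black ticks medians, and the pseudogene is not drawn. In day 14 replicate 2 values run from -3.85 (Atp5f1d) to 1.42 (Cox7a1), and in day 49 replicate 2 the high values are Cox5a (1.57) and Cox8b (1.51).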

How the data were processed

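Total RNA of motor cortex was hybridised to 1-colour rat arrays. The deposited values are log2 signals made with RMA, per the submitters' processing notes; its version and settings are not given in the sources used here. Symbols came from the platform annotation, updated by gene ID through RefSeq: 20758 probe sets were named by gene ID, 436 had several symbols and 9780 none. After 57 array controls were left out, 31042 probe sets were fitted with limma 3.58.1 in R 4.3.3 (6 group means, 19 arrays, eBayes, two-sided, Benjamini-Hochberg over all probe sets, threshold 0.05). The fit was tested on simulated data. The number of arrays limits the precision. Each p-value sets a difference against the spread between arrays within groups, estimated over all 6 groups. The median residual SD of the members was 0.12 with all 19 arrays and 0.062 in the 17.

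The members, roles, lists and motifs were chosen with earlier results of these data known; the NRF1 core was first searched with 1 more letter, which fewer members and fewer of all promoters held. Genes were named by rule: per class the 2 of smallest F test p, the highest and lowest at each time, and fixed catalytic subunits and paralog pairs. Replicate numbers were checked as pairs: for control and day 1, same-numbered deviations correlated at 0.17, 0.12 and 0.27, although the source names give separate animals. For control and the later times these correlations ran from -0.15 (day 14 replicate 3) to 0.42 (day 49 replicate 2). Alternatives covered normalization, a signal filter, variance moderation, array weights, the arrays that stand apart, a beta-actin covariate, a replicate block, fits of 2 groups and each replicate left out. Python 3.11.15 with matplotlib 3.10.9 made the plots.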

Additional observations from a re-analysis of the deposited data

Results flagged for a closer look

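In control replicate 1, Ndufa12 measured 10.75 log2 units, far from the other 3 controls, which lay at 10.90 to 10.92. In the same array Ndufaf5, an assembly factor of complex I, measured 8.01, against 8.10 to 8.12 in the others. These came from 54 tests for a sample far from its group, of which chance flags about 1 in 20.

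No difference between times passed: over 10 pairs of times and 89 members (890 tests, limma), 0 were called, 27 had an unadjusted p under 0.05, and the smallest adjusted p was 0.343.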

How the results depend on the processing

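The counts of members called stayed at 0 at days 1, 3, 7 and 14 under every alternative run. At day 49 the count became 19 with array weights (21% of all probe sets) and 3 without day 49 replicate 1 (7.84%); by the F test it became 8 with array weights (20.7%). Array weights gave day 49 replicate 3 a weight of 3.70 and replicates 1 and 2 weights of 0.385 and 0.067; the cause was not tested. The 19 included Sdha at -0.42, and the 3 were Sdha at -0.36, Cox5a at 1.00 and Cox6b2 at 0.39. The median member difference at day 49 became 0.071 when quantile normalization was applied again. With a replicate block 0 members were called at any time, and the block changed no member's call.

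With 1 replicate left out in turn, the median member difference ranged from 0.013 to 0.057 at day 1, -0.027 to 0.018 at day 3, 0.0028 to 0.053 at day 7, 0.048 to 0.14 at day 14 and -0.0018 to 0.057 at day 49; the count called ranged from 0 to 3 at day 49 and stayed at 0 elsewhere. The lowest medians at days 1, 3, 7 and 49 came without control replicate 1, and the lowest at day 14 without day 14 replicate 2. The median at day 1 was 0.019 without day 1 replicate 3, and that at day 49 was 0.043 without day 49 replicate 2.

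Some single genes turned direction. Without the 2 arrays that stand apart, day 14 differences became 0.032 (Atp5f1b), 0.040 (Atp5f1d), 0.0025 (Cox4i1), 0.034 (Cox6a1), -0.037 (Cox7a1), -0.043 (Ndufaf5), 0.093 (Ndufb8), -0.012 (Ndufs4), 0.044 (Sdhb), 0.024 (Sdhc) and 0.0017 (Uqcrfs1), and day 49 differences -0.015 (Cox4i2) and -0.060 (Cox6a2). With array weights, day 14 differences became 0.036 (Atp5f1b), -0.0065 (Atp5mc3), 0.026 (Cox4i1), 0.047 (Cox6a1), -0.061 (Cox7a1), -0.056 (Ndufaf5), 0.083 (Ndufb8), -0.012 (Ndufs4), 0.034 (Sdhb), 0.0068 (Sdhc) and 0.026 (Uqcrfs1), and day 49 differences -0.028 (Cox4i2), -0.13 (Cox6a2) and -0.0086 (Cox8b). With the beta-actin covariate, day 14 differences became 0.018 (Atp5f1b), 0.0069 (Cox6a1), -0.0010 (Cox6b1), -0.0041 (Ndufaf1), -0.037 (Ndufaf5), 0.074 (Ndufb8) and -0.026 (Ndufs4). Quantile normalization again gave Ndufs1 0.0012 at day 49. Leaving out 1 replicate gave Ndufs1 a range of -0.14 to 0.019 at day 49. With single replicates left out, day 14 ranges were -0.18 to 0.032 (Atp5f1b), -1.91 to 0.040 (Atp5f1d), -0.29 to 0.0025 (Cox4i1), -0.18 to 0.034 (Cox6a1), -0.037 to 0.72 (Cox7a1), -0.043 to 0.34 (Ndufaf5), -0.56 to 0.093 (Ndufb8), -0.012 to 0.14 (Ndufs4), -1.05 to 0.044 (Sdhb), -1.90 to 0.024 (Sdhc) and -0.18 to 0.0017 (Uqcrfs1), and day 49 ranges -0.015 to 0.46 (Cox4i2) and -0.060 to 0.27 (Cox6a2). The cause was not tested.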
